A study of Mus musculus with 4 samples.

Results

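The genes described here lie around Csnk2b on mouse chromosome 17. They are the annotated features that lie wholly within a window of 810 kb on the mm9 build and have an exon length in the deposited tables, without Csnk2b itself. The first of them, Cyp21a2-ps, starts at position 34856758, and the last, Tcf19, ends at position 35653769. They numbered 78 of 28032 features with an exon length. Of these, 42 lay on the side of lower coordinates and 36 on the side of higher coordinates, and the farthest, the pseudogene Cyp21a2-ps, lay 393.944 kb from the Csnk2b span. A further 10 features of the window had no exon length.

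The window was chosen as a check of local effects around the targeted gene. RNA was counted in 4 libraries of regulatory T cells (Tregs), the CD4+Foxp3+ lymphocytes that restrain other immune cells, sorted from C57BL/6 mice 8 weeks of age. A wild-type (WT) and a Csnk2b-deficient library (genotype label Csnk2b-/-) came from the spleen, and a second pair came from the tracheal lymph nodes. Csnk2b encodes the beta chain of the kinase CK2, which docks substrates and steadies the catalytic chains. The labels do not name a Cre driver or allele, and they do not say whether a library was 1 animal or a pool. With 1 library per genotype and tissue, no test within a tissue was possible. The p-values below come from fits over both tissues. The edgeR fit left 1 residual degree of freedom, set by how far the spleen and lymph node pairs disagree. Most of the spread behind each edgeR p-value was borrowed from the other features (prior 10.1 degrees). These p-values therefore do not measure variation between replicates of a genotype within a tissue. The RNA was extracted and made into libraries with different kits in sample numbers 1 and 2 and in sample numbers 3 and 4. If these follow the order of listing, tissue and kit cannot be told apart.

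The major histocompatibility complex of the mouse, called H2, holds classes of immune genes side by side. Its class III region is among the most gene-dense stretches of the genome. It carries the complement genes C4, C2 and factor B, the cytokine cluster Tnf, Lta and Ltb, the heat shock protein 70 genes, the Ly6 cluster and many genes of RNA and protein handling that are active in most cells. Next to it lie class I genes, whose products present peptides to CD8 T cells and NK cells. The window takes in some of these too (H2-D1 and the H2-Q genes), as well as Pou5f1 and Tcf19, so "class III" names only its larger portion.

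Libraries held between 4737814 and 5506113 exon reads, with 6750695 in WT spleen above that range. Reads of the 78 genes made up 1.27% of exon reads in WT spleen, 1.42% in Csnk2b-deficient spleen, 0.437% in WT lymph node and 0.535% in Csnk2b-deficient lymph node. All 7 Treg markers had reads in every library and summed to between 3699 and 6477 CPM (exon reads scaled to a common library size). Of these, Foxp3 itself passed the threshold as lower in the deficient libraries (log2 fold change -1.66 ± 0.25, adjusted p = 0.0375, edgeR). That call was lost with DESeq2 size factors (adjusted p = 0.298), upper-quartile scaling (0.0982), uniquely placed reads (-0.71, 0.900) and no replicate block (-1.48, 1.00), in a range of 1.67e-11 to 1.00 over the alternatives. It was kept by the DESeq2 test (adjusted p = 3.87e-06) and by limma-voom (1.21e-04). By edgeR it was also kept without a filter on low counts (1.67e-11) and with a mean of at least 5 CPM (0.0458). Markers of myeloid cells (6 genes) summed to 10.5 CPM in WT spleen, 6.57 in deficient spleen, 46.2 in WT lymph node and 298 in deficient lymph node. In that order 1, 3, 4 and 0 of the 6 had no read, and Lyz2 alone gave 283 of the 298 CPM. In WT and deficient lymph node, B cell markers summed to 148 and 98.7 CPM, CD8 T cell markers to 52.5 and 39.0, and NK cell markers to 1.47 and 7.02. Epithelial and stromal cell markers summed to 227 and 261 CPM there, of which Pecam1 alone gave 224 and 248. Krt8 and Pdgfra, on the same list, had no read in any library. Erythroid cell and platelet markers summed to 41.8 and 3.95 CPM in WT and deficient lymph node. In bulk RNA, fewer cells of a type and less RNA per cell cannot be told apart.

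Csnk2b was lower in both deficient libraries. It had 649 exon reads in WT spleen, 148 in deficient spleen, 667 in WT lymph node and 283 in deficient lymph node, or 82.3, 25.6, 163 and 62.04 CPM. Neither deficient library reached its WT partner, and reads remained in both. The fitted log2 fold change over both tissues was -1.54 ± 0.26 (SE), with log2 CPM ratios of -1.67 (spleen pair) and -1.39 (lymph node pair). The edgeR adjusted p was 0.0658, above the threshold of 0.05. It was below it by DESeq2 (0.00534), by limma-voom (0.00374) and without a filter on low counts (4.99e-05), in a range of 4.99e-05 to 1.00 over the alternatives.

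Gpank1 (also Bat4), which encodes a protein with a G-patch domain and ankyrin repeats, lies head to head with Csnk2b, and in the deposited tables their spans overlap (Csnk2b at chr17:35253141-35258998, Gpank1 at chr17:35258400-35261759, mm9). In the GENCODE M21 annotation of the GRCm38 build, Csnk2b on the minus strand and Gpank1 on the plus strand overlap by 599 bases of their spans and by 62 bases of exon. The most upstream RefSeq start of Csnk2b short of Gpank1, at 35121429, is separated by 25 bases from the GENCODE start of Gpank1, at 35121455. The stretch is shown because the 2 genes that start there were both lower in both deficient libraries. Below it is written from chr17:35121400-35121484 of GRCm38.p6, minus strand, 5′ to 3′, from RefSeq. Capitals mark the 25 bases between the starts, with 30 bases toward Gpank1 before them and 30 bases of the Csnk2b side after them.
Csnk2b and Gpank1 starts: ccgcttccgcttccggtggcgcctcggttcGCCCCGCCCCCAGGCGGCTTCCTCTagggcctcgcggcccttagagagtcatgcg

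The bases between the starts were 80.0% G or C, and the whole 85-base stretch 72.9%. On either strand, the GC box core GGGCGG occurred 1 time between the starts, and 35.7% of the 32851 promoter windows of 300 bases in the RefSeq table hold it. The ETS core CCGGAAG occurred 1 time in the stretch, on the Gpank1 side, against 8.86% of the promoter windows. TATAAA did not occur in the stretch or in the 300-base window of this Csnk2b start (13.6% of promoter windows hold it). CCAAT occurred 1 time in the 300-base window and not in the stretch (37.4% of promoter windows). These matches describe the letters only.

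Gpank1 had 175 exon reads in WT spleen, 17 in deficient spleen, 34 in WT lymph node and 5 in deficient lymph node, or 22.2, 2.94, 8.31 and 1.10 CPM. Each deficient library was below its WT partner, as were 29.2% of all features tested. Of all 40 tested genes of the window, Gpank1 had the lowest fitted value, with a log2 fold change of -2.90 ± 0.80. The spleen ratio of CPM was 0.132 (95% exact binomial interval 0.0755 to 0.218) and the lymph node ratio 0.132 (0.0403 to 0.339). These intervals, like the others below, cover counting error only. By edgeR the unadjusted p was 0.0039, rank 93 of 11113 features, and the adjusted p was 0.455, so Gpank1 did not pass the threshold. Its adjusted p ranged from 0.114 to 1.00 over the alternatives, and its log2 fold change from -3.79 to -1.99.

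Most Gpank1 reads could be placed at more than 1 position. Only 16.0% of its exon reads were uniquely placed, with 25 in WT spleen, 4 in deficient spleen, 7 in WT lymph node and 1 in deficient lymph node. Reads across exon junctions, all of them uniquely placed, numbered 15, 1, 6 and 1 in the same order. Both smaller counts also lay lower in each deficient library than in its WT partner. With uniquely placed reads alone, Gpank1 did not pass the filter on low counts and had no test.

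Gm20522 is annotated on the strand opposite to Gpank1, and the 2 spans share 2077 bases and 287 bases of exon in GENCODE. No source used here says that strand was used in counting, so their reads cannot be told apart with certainty. The same holds for the 62 bases of exon that Gpank1 shares with Csnk2b. Whether Csnk2b reads entered the Gpank1 counts was not tested. Gm20522 had 3, 12, 16 and 12 exon reads (WT spleen, deficient spleen, WT lymph node, deficient lymph node). It was higher in the deficient library of the spleen (log2 ratio 1.72) and not of the lymph node (-0.51), and the fitted log2 fold change was 0.77 ± 1.54 (edgeR adjusted p = 0.949). With the reads of Gpank1 and Gm20522 summed, an alternative chosen after seeing the data, the libraries held 178, 29, 50 and 17 reads. The summed change was -1.95 ± 0.66 (edgeR adjusted p = 0.786), with ratios of -2.09 and -1.62 in the pairs. Such a sum may count a read placed in both genes more than once.

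The next genes on either side were closer to 0. Toward higher coordinates, D17H6S53E lay 4.320 kb from Csnk2b and had 157, 154, 33 and 50 exon reads. Its CPM was higher in the deficient library of both pairs (19.9 against 26.6 in spleen, 8.07 against 11.0 in lymph node), with a fitted log2 fold change of 0.43 ± 0.50. Bag6, a chaperone that guards newly made membrane proteins, lay at 13.125 kb with 1732, 1188, 80 and 69 reads and a change of -0.21 ± 0.25. Prrc2a, a proline-rich RNA-binding protein, lay at 27.023 kb with 4242, 2810, 68 and 13 reads. Its pairs differed in size, with log2 ratios of -0.15 (spleen) and -2.40 (lymph node), and the fitted value was -0.87 ± 0.41 (edgeR adjusted p = 0.890).

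Toward lower coordinates, Ly6g5b, a member of the Ly6 family of small cysteine-rich proteins, ended 0.768 kb from Csnk2b. It had 22, 10, 27 and 34 reads and a fitted change of -0.24 ± 1.05, with the pairs in opposite directions. Abhd16a, a lipase of phosphatidylserine, lay at 13.209 kb with 361, 249, 66 and 63 reads and a change of -0.15 ± 0.37. Ddah2, of the enzyme family that breaks down methylated arginines, lay at 54.101 kb with 14, 7, 18 and 3 reads. Its change of -1.56 ± 1.53 rested on 42 reads in all. The next 2 tested genes on this side were Clic1 at 57.447 kb and Msh5 at 69.451 kb, given below with the other genes of their roles. Among the 5 nearest tested genes on each side, Gpank1 (lower) and Clic1 (higher) had an edgeR unadjusted p under 0.05. Over all features tested, 2.2% were lower and 2.67% higher at that level.

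**Figure D1:**
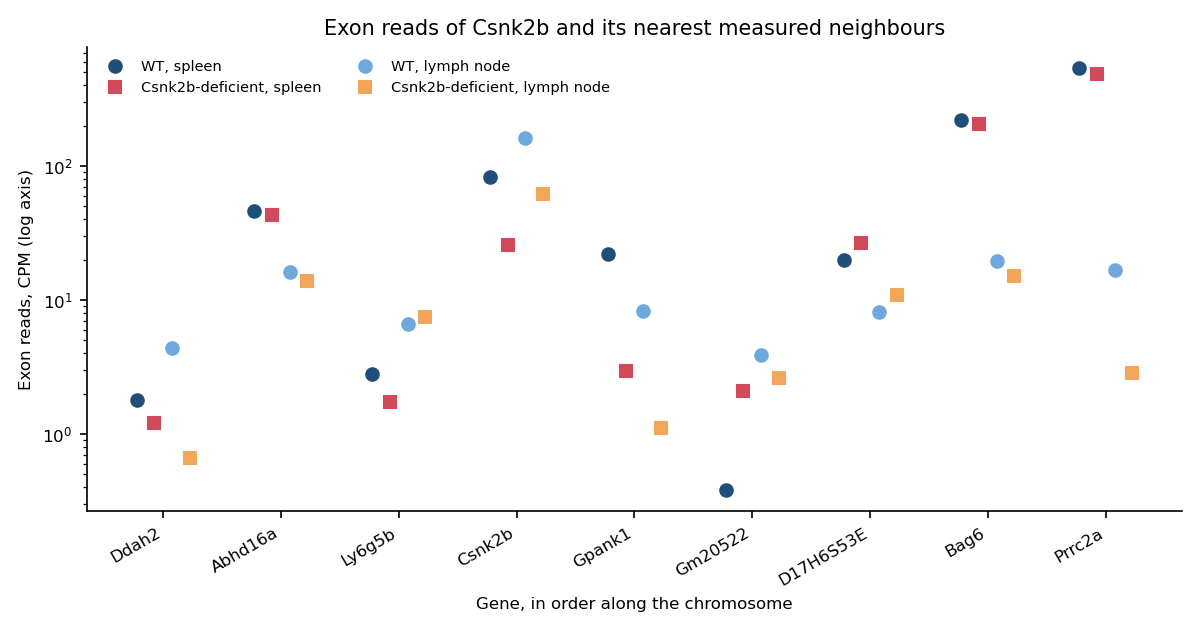
Exon reads of Csnk2b and 8 of its nearest tested neighbours as CPM on a log axis, in order along the chromosome; each point is 1 library. Csnk2b and Gpank1 lie lower in both deficient libraries (squares) than in the WT library of the same tissue (circles) by a log2 ratio beyond -1 in each pair, while Abhd16a and Bag6 nearly coincide within each tissue.

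Across the window as a whole, 40 of the 78 genes passed the filter on low counts and were tested, and 38 were not. Of those not tested, 12 had no read in any library, among them Pou5f1 and 7 of the 8 Ly6 cluster genes. The other 26 had a read in at least 1 library, with at most 64 reads in all for 1 gene. Among the tested genes, 16 had under 90% of their reads uniquely placed. Medians and counts below are over the tested genes and not over all 78.

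By edgeR, 0 of the 40 passed the threshold as higher (0.126% of all 11113 features tested did) and 0 as lower (0.018%). On chromosome 17 outside the window, 0 of 560 passed in either direction by edgeR, with 16 higher and 17 lower at an unadjusted p under 0.05. At an unadjusted p under 0.05, 4 genes were higher (Clic1, Lta, H2-Q6 and H2-Q7, against 2.67% of all features) and 1 was lower (Gpank1, against 2.2%). DESeq2 and limma-voom gave the same 5 genes at that level, and they called 1 and 0 genes of the window after adjustment. The gene called by DESeq2 was Clic1. It was also the 1 gene of the window called by edgeR without a filter on low counts.

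Genes higher in the deficient library of both pairs numbered 11 (27.5%, against 27.7% of all features), and genes lower in both numbered 9 (22.5%, against 29.2%). The other 20 differed in direction between the tissues. Shares this near to the background say nothing particular about the window. In the spleen pair 1 tested gene was over 2-fold higher (Gm20522, against 2.45% of all features) and 2 were over 2-fold lower (C2 and Gpank1, against 1.73%). In the lymph node pair 7 were over 2-fold higher (Dom3z, C2, Vars, Msh5, Clic1, Atp6v1g2 and Tcf19, against 16.1%) and 4 over 2-fold lower (Ddah2, Gpank1, Prrc2a and Nfkbil1, against 10.1%). Gpank1 was the 1 tested gene of the window past 2-fold in the same direction in both pairs. The share of all features that were so is not given here, so this count says nothing particular about the window.

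The median log2 fold change was 0.11 over the 40 genes, 0.01 over all features and -0.02 over chromosome 17 outside the window. In the spleen pair these medians were 0.01, -0.02 and -0.04, and in the lymph node pair 0.08, 0.03 and 0.01. Within 50 kb of Csnk2b, 7 of 16 genes were tested, with a median of -0.21, of which 4 were lower in both pairs and 1 higher in both. Between 50 and 150 kb, 14 of 23 were tested, with a median of -0.11, 3 lower in both and 4 higher in both. Beyond 150 kb, 19 of 39 were tested, with a median of 0.14, 2 lower in both and 6 higher in both. Over all features, 29.2% were lower in both pairs and 27.7% higher in both. Toward lower coordinates alone, the medians from the nearest bin to the farthest were -0.19, 0.44 and 0.03. Toward higher coordinates they were -0.21, -0.21 and 0.22, so the 2 sides did not follow the same course. Neighbouring genes are not independent, and these bins carry no test.

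**Figure D2:**
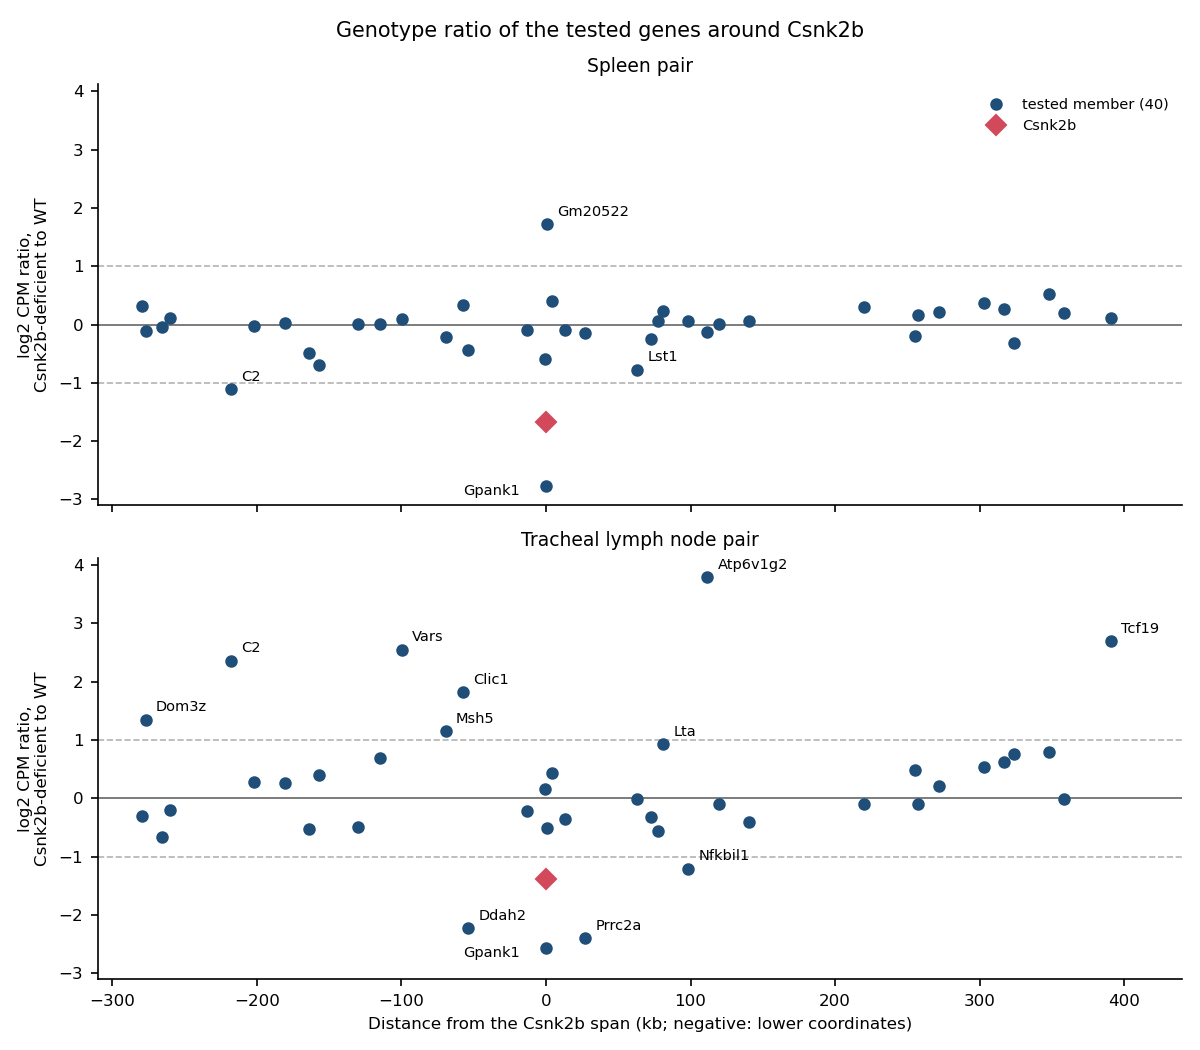
Log2 CPM ratio of Csnk2b-deficient to WT in the spleen pair (top) and the lymph node pair (bottom) against distance from the Csnk2b span in kb, for the 40 tested genes (circles) and Csnk2b (diamond); dashed lines mark a 2-fold ratio. Spleen circles other than Gm20522, C2 and Gpank1 lie within 2-fold, lymph node circles spread more widely on both sides of 0, and Gpank1 lies at -2.77 and -2.58.

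None of the cytokine genes Tnf, Lta and Ltb passed the threshold by edgeR, and Lta alone of the 3 had an unadjusted p under 0.05. These TNF superfamily ligands act on receptors that drive inflammation and the building of lymphoid tissue, with lymphotoxin alpha (Lta) secreted or held at the membrane by lymphotoxin beta (Ltb). Lta had 512 exon reads in WT spleen, 442 in deficient spleen, 694 in WT lymph node and 1474 in deficient lymph node, or 64.9, 76.5, 170 and 323 CPM. It was higher in the deficient library of both tissues (log2 ratios 0.23 and 0.93), with a fitted change of 0.59 ± 0.24 and edgeR p values of 0.0338 unadjusted and 0.890 adjusted. Ltb had 4280, 2652, 44 and 39 reads and lay lower in both pairs (-0.24 and -0.32; fitted change -0.27 ± 0.22). Tnf had 364, 279, 266 and 200 reads, with ratios of 0.06 in spleen and -0.56 in lymph node and a fitted change of -0.25 ± 0.32. Of the receptors of these ligands outside the window, 3 of 4 listed genes were tested, with a median change of -0.05. By edgeR, DESeq2 and limma-voom, 0 passed and 0 had an unadjusted p under 0.05.

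Per exon length, the 3 most abundant genes of the window were the class I genes H2-D1, H2-Q6 and H2-Q7. H2-D1, a classical class I heavy chain, had 18057, 13878, 6881 and 5761 exon reads and a mean of 738 CPM per kilobase of exon. H2-Q6 had 13111, 12505, 3537 and 5752 reads, and H2-Q7, a gene of the nonclassical Qa-2 antigen, had 19019, 16747, 3242 and 5561. H2-Q6 and H2-Q7 were higher in both deficient libraries, with fitted changes of 0.46 ± 0.16 and 0.44 ± 0.17 (edgeR adjusted p 0.839 and 0.890). H2-D1 was 0.07 higher in spleen and 0.41 lower in lymph node on the log2 scale, and its fitted change was -0.17 ± 0.17.

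The H2-Q genes resemble one another, and between 47.5% (H2-Q5) and 64.3% (H2-Q6) of the reads of H2-Q4 to H2-Q7 were uniquely placed, so their separate values are uncertain. Their summed reads were 41906, 37352, 7298 and 11912, a fitted change of 0.42 ± 0.15 with ratios of 0.28 and 0.55 (edgeR adjusted p = 0.891). That sum was chosen after seeing the data and may count shared reads more than once. Over the 8 class I genes on the list, 7 were tested and 0 passed, with a median of 0.22. In both pairs 4 were higher and 0 lower, against 27.7% and 29.2% of all features. Of the 4, H2-Q5, H2-Q6 and H2-Q7 may share reads, and H2-Q10 had 50 reads in all. Of 17 class I presentation genes outside the window, 16 were matched and tested and 0 passed by edgeR, DESeq2 or limma-voom (2, 2 and 3 at an unadjusted p under 0.05). Of these, 7 were higher and 4 lower in both pairs, with a median of 0.03. B2m, the light chain of class I, was higher in both pairs there (0.18 and 0.91), and H2-K1 had 0.07 and -0.22.

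**Figure D3:**
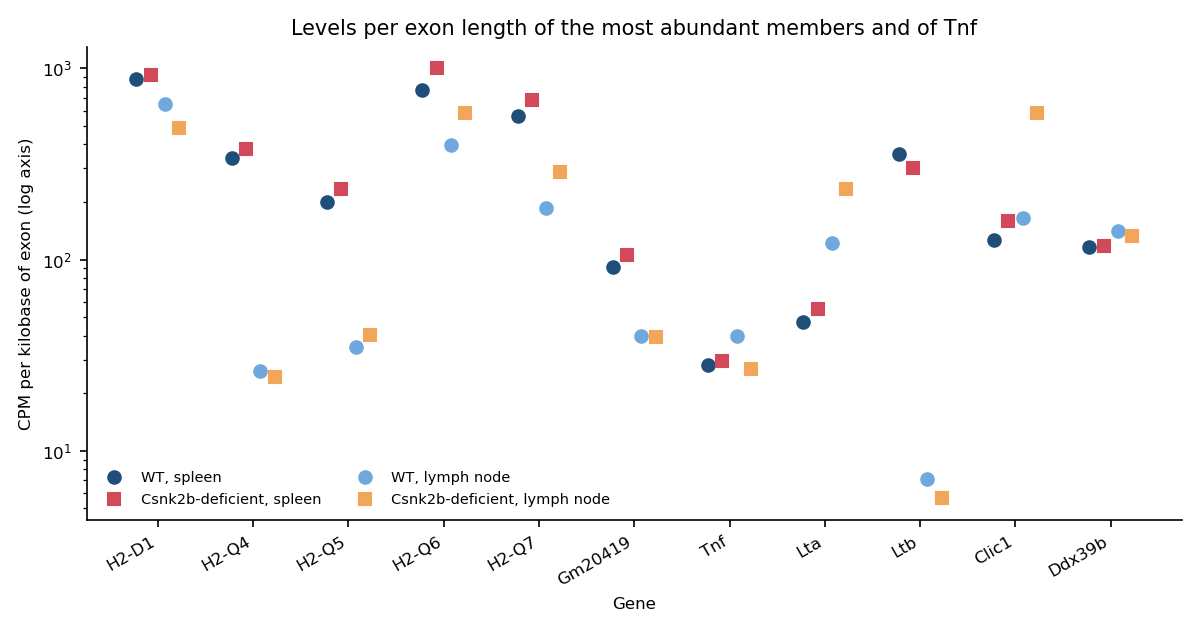
Levels of the 10 most abundant genes of the window and of Tnf as CPM per kilobase of exon on a log axis; each point is 1 library. H2-Q4, H2-Q5 and Ltb lie lower in both lymph node libraries than in both spleen libraries, and Clic1 and Lta reach their highest level in the deficient lymph node library.

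Clic1, a chloride intracellular channel protein 57.447 kb from Csnk2b, had 1791 exon reads in WT spleen, 1662 in deficient spleen, 1213 in WT lymph node and 4779 in deficient lymph node. That is 227, 287, 296 and 1048 CPM, so the deficient lymph node library stood above the other 3. The log2 ratio was 0.34 in spleen and 1.82 in lymph node, and the fitted change was 1.08 ± 0.31. By edgeR the unadjusted p was 0.0061 and the adjusted p 0.525. The adjusted p was 0.0467 by DESeq2 and 2.42e-04 without a filter, in a range of 2.42e-04 to 1.00 over the alternatives. Whether the ratio differs between the tissues was not tested, since that difference is the only residual of the fit.

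Clic1 is 1 of 8 genes of lipid, membrane and small-molecule metabolism, of which 5 were tested and 0 passed by edgeR. Neu1, the lysosomal sialidase, had 575, 428, 238 and 317 reads and a change of 0.14 ± 0.27. Atp6v1g2, a subunit of the proton pump of vesicles, had 115, 77, 0 and 21 reads. In the lymph node it was 6.28-fold higher in the deficient library with the 0 WT reads set to a floor of 3. The 95% exact binomial interval of that ratio began at 4.67. In spleen the ratio of Atp6v1g2 was 0.913 (0.675 to 1.23). Apom, Slc44a4 and Cyp21a1 had between 2 and 5 reads in all.

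The genes of RNA processing and transcription elongation were all tested (6 of 6), and 0 passed. Ddx39b, a helicase of messenger RNA export, was the most abundant, with 3468, 2561, 2187 and 2288 reads. Its change was -0.04 ± 0.18, with ratios of 0.01 in spleen and -0.09 in lymph node. Skiv2l, the helicase of the SKI complex of RNA decay, was lower in both pairs (-0.04 and -0.66). Dom3z (also Dxo), a decapping exonuclease, had 271, 184, 16 and 48 reads, with -0.11 in spleen and 1.35 in lymph node. The median of the 6 was -0.14.

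Ehmt2, the G9a methyltransferase of histone H3, had 1643, 1188, 88 and 120 reads and a change of 0.12 ± 0.24. Tcf19, a nuclear factor at 390.681 kb, had 97, 77, 8 and 67 reads, with ratios of 0.11 in spleen and 2.70 in lymph node and a fitted change of 1.37 ± 0.83. Nfkbil1, related to the inhibitors of NF-kappaB, had 122, 94, 4 and 1 reads. Vars, the valyl-tRNA synthetase, had 1506, 1176, 2 and 21 reads, and its lymph node ratio of 9.42 had an interval of 2.30 to 82.9. Apart from Ehmt2, these ratios rested on few lymph node reads, and none of these genes passed (edgeR adjusted p between 0.890 and 0.954).

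Msh5, a meiotic relative of the mismatch repair proteins, had 29, 18, 0 and 2 reads. Hspa1b, the only tested heat shock 70 gene of 3, had 37, 16, 1 and 2 reads, and 44.6% of them were uniquely placed. 1110038B12Rik, 163.725 kb from Csnk2b, had 116, 60, 88 and 68 reads and was lower in both pairs (-0.49 and -0.52; fitted change -0.52 ± 0.52). H2-Q10 had 19, 21, 3 and 7 reads and a change of 0.78 ± 1.40. The errors of these low genes were as large as the change or larger.

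Most reads of factor B (Cfb), the serine protease of the alternative complement pathway, came from the deficient lymph node library. C2, the second component, had 18, 5, 3 and 24 exon reads, and Cfb had 1, 1, 0 and 62. Gm20547 and CT025759.1, whose spans overlap those 2 genes in the tables, had 0, 1, 0 and 27 reads and 0, 0, 0 and 41 reads. Cfb was at least 18.5-fold higher in the deficient than in the WT lymph node library, against a floor of 3 reads. Only 1.56% of its reads and 14.0% of those of C2 were uniquely placed, so the 4 features may share reads. Their summed reads were 19, 7, 3 and 154, or 2.41, 1.21, 0.733 and 33.8 CPM, with a fitted change of 2.13 ± 1.59 (edgeR adjusted p = 0.893). This sum, chosen after seeing the data, may count the same read several times. C4a had 12, 19, 0 and 3 reads, most of them in spleen, and C4b had 2, 0, 0 and 2.

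Aif1, a gene of macrophages and microglia, also had most of its reads in the deficient lymph node library, with 5, 4, 5 and 40 reads, a lymph node ratio of 7.18 (2.83 to 23.3) and a spleen ratio of 1.09 (0.216 to 5.07). Lst1, a leucocyte-specific transcript, did not, with 16, 6, 18 and 20 reads. The myeloid marker sum was also highest in the deficient lymph node library (298 CPM, against 46.2 in WT lymph node). Its part in the Cfb, C2 and Aif1 values was not tested.

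**Figure D4:**
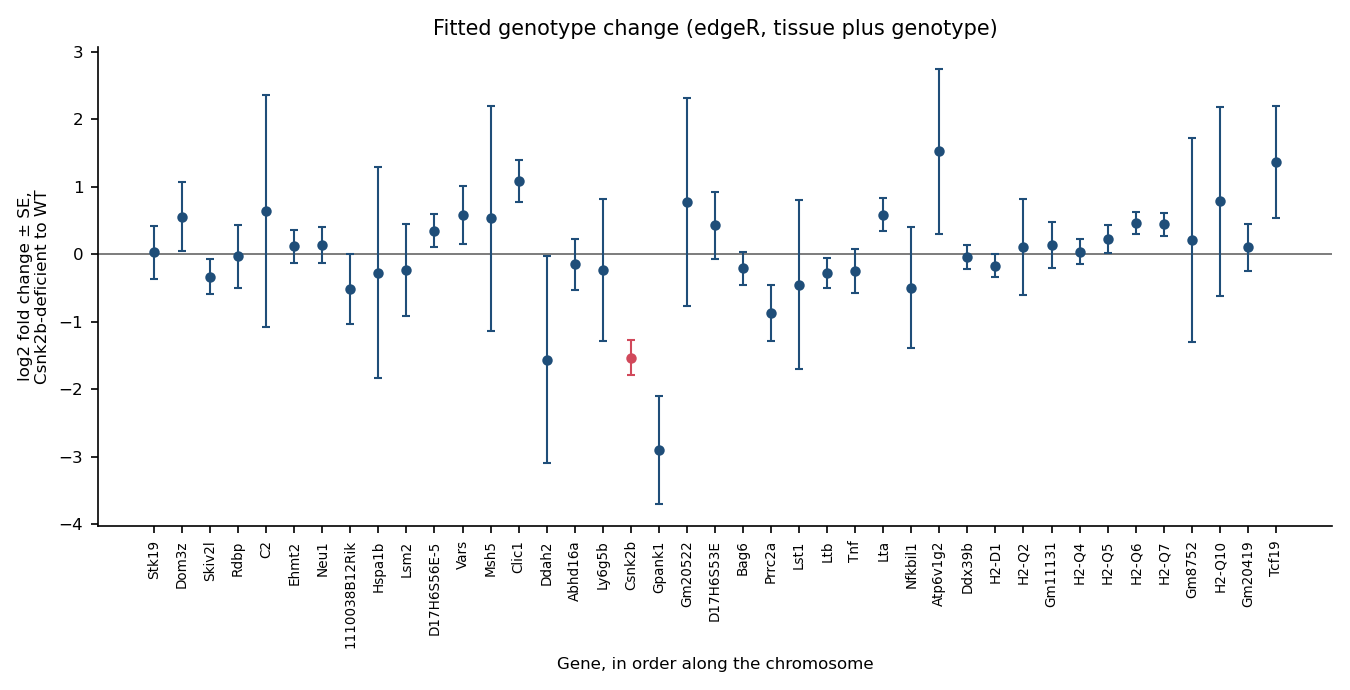
Fitted log2 fold change of Csnk2b-deficient to WT with its SE for the 40 tested genes and Csnk2b (red), in order along the chromosome. Csnk2b lies at -1.54 and Gpank1 at -2.90, and bars are widest for genes with few reads such as C2, Msh5 and Hspa1b.

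More genes of the window differed between the tissues than between the genotypes, and the same held over all features tested. Comparing lymph node with spleen, 3 of the 40 genes passed the threshold as higher in lymph node (23.3% of all features did) and 17 as lower (22.2%). The median tissue difference was -1.35 over the 40 genes on the log2 scale, -0.17 over all features and -0.31 over chromosome 17 outside the window. The higher genes were Lta (1.73 ± 0.25), Clic1 (1.13 ± 0.31) and D17H6S56E-5 (1.05 ± 0.24). D17H6S56E-5 had 768, 568, 652 and 1170 reads and a genotype change of 0.35 ± 0.24.

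Ltb had a log2 difference of lymph node to spleen of -5.70 ± 0.25, with 358 and 303 CPM per kilobase of exon in spleen and 7.09 and 5.64 in lymph node (edgeR adjusted p = 5.28e-07). The difference was -3.84 ± 0.21 for H2-Q4, -3.62 ± 0.27 for Bag6, -3.12 ± 0.26 for Ehmt2 and -6.32 ± 0.49 for Vars, all past the threshold. Prrc2a, with -5.94 ± 0.47, had a level of 70.5 CPM per kilobase of exon in WT spleen and 2.18 in WT lymph node. H2-D1, H2-Q5, H2-Q6 and H2-Q7 were lower too, with -0.69 ± 0.17 for H2-D1. Of the reads of these 78 genes, the share outside exons was 17.3% and 18.0% in spleen and 5.77% and 8.86% in lymph node, against 21.1% to 23.8% over all features. The library kits may follow the same split as the tissues, and tissue and kit cannot be told apart.

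**Figure D5:**
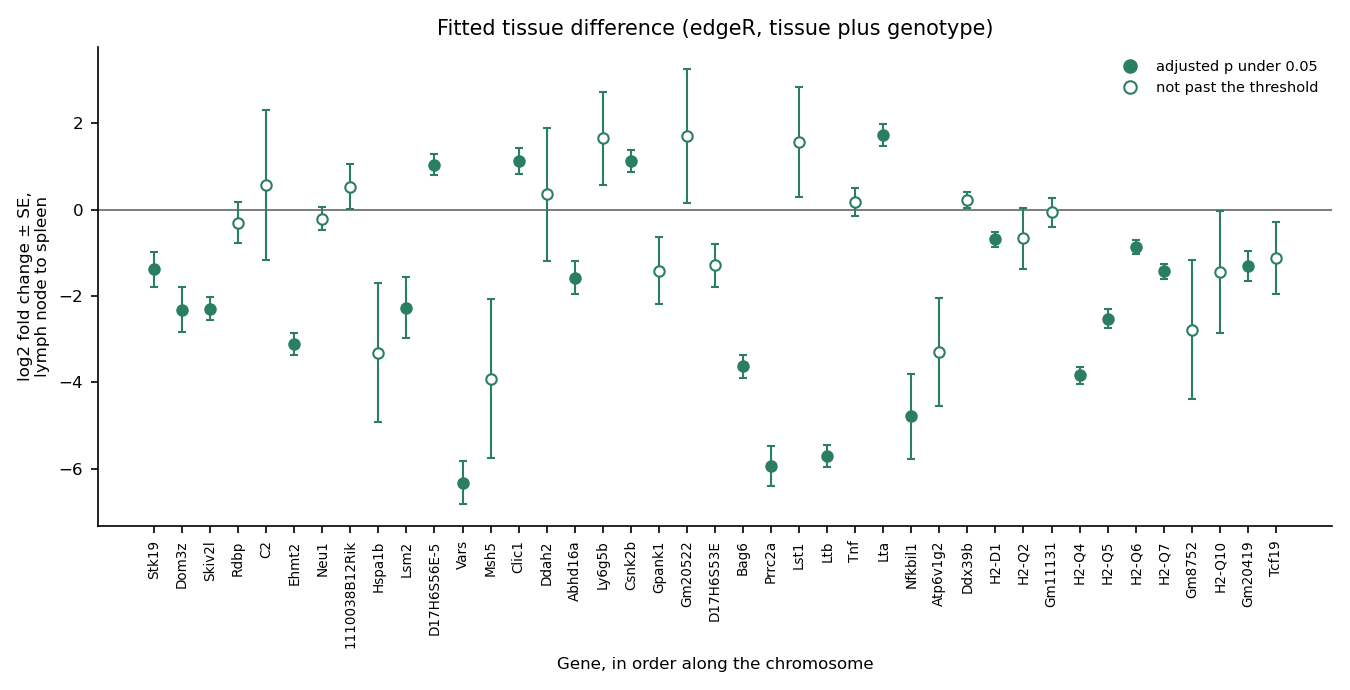
Fitted log2 fold change of lymph node to spleen with its SE for the 40 tested genes and Csnk2b, in order along the chromosome; filled points passed the edgeR threshold of 0.05. Most filled points lie below 0, with Vars, Prrc2a and Ltb below -5 and Lta, Clic1, D17H6S56E-5 and Csnk2b near or above 1.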

How the data were processed

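Per the labels, 4 Treg libraries were run on a MiSeq. The authors deposited read counts per annotated feature with exon length, chromosome, start and end, per the file headers. The submitters' processing notes name CASAVA 1.8.2 and mm9. For the aligner, the annotation and any use of strand: not given in the sources used here. Total exon reads, which include reads with several placements, were tested. Features without an exon length (9551 of 37583) were left out.

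All features were fitted together in R 4.3.3 with edgeR 4.0.16. Low counts were removed with filterByExpr (groups by genotype), libraries were scaled by TMM, dispersion was robust, and a model of tissue and genotype was tested by quasi-likelihood. P-values of the 11113 features tested were adjusted by Benjamini-Hochberg at a threshold of 0.05. The replicate number is the tissue in the labels, so it pairs the libraries. The fit left 1 residual degree of freedom, which is how the genotype change differs between tissues (prior 10.1 degrees, biological coefficient of variation 30.0%). An SE is the size of the log2 change divided by the root of F. Pair ratios are log2 CPM differences with a prior count of 2. Intervals of a CPM ratio are 95% exact binomial (scipy 1.17.1) and folds against 0 use a floor of 3 reads. The edgeR procedure was run on simulated counts in which 200 genes changed 4-fold, in the same direction in both pairs. It recovered 153 of them (76.5%), with 8 false calls. Smaller changes, and changes that differ between the tissues, were not simulated.

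Named genes were Csnk2b, the 5 tested neighbours on each side, the 5 largest changes per direction with at least 20 reads, the 3 smallest p, the most abundant gene of each role, Tnf, Lta and Ltb, the 10 most abundant genes, and 5 genes per direction for tissue. Others named by value (the untested complement genes and features, Aif1, Neu1, Skiv2l, Dom3z, B2m, H2-K1, Foxp3 and Lyz2) were chosen after their values were seen. The members and lists were chosen with earlier results of these data known. Alternatives were other scalings, filters, DESeq2 1.42.0, limma-voom (limma 3.58.1), uniquely placed reads, and fits without the block or single libraries.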

Additional observations from a re-analysis of the deposited data

Results flagged for a closer look

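H2-D1 had opposite directions in the tissues, each beyond counting error: a log2 ratio of 0.07 for spleen and -0.41 for lymph node. Both ratios were of ordinary size. Over all features tested, the lower and upper quartiles were -0.19 and 0.15 in spleen and -0.46 and 0.61 in lymph node. The difference between the tissues was not tested.

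ENSMUSG00000092557, a feature of the window with no exon length and so outside the comparisons, had gene reads in every library: 8 in WT spleen, 11 in deficient spleen, 9 in WT lymph node and 25 in deficient lymph node. A second such feature with reads in every library, ENSMUSG00000091655, had 3, 1, 10 and 1 in the same order.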

How the results depend on the processing

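Over the settings that kept all 4 libraries, 271 values were classed as the same, 19 as moved, 5 as stronger and 3 as reversed. For a gene, the same meant an unchanged direction and side of the threshold. Counts and medians have no such side and were classed by size. Most named genes lay far above the threshold in the main fit, so staying there says little. Genes of the window past the threshold were 0 in each direction, and 1 higher by DESeq2 or without a filter. Over all features, 14 higher and 2 lower genes became 4 and 0 with DESeq2 size factors, 79 and 32 without a filter, 38 and 16 by DESeq2, 39 and 21 by limma-voom, and 7 and 0 with uniquely placed reads, and upper-quartile scaling gave 1 lower. Without the replicate block, edgeR called 0 genes in either direction (29 at an unadjusted p under 0.05), Gpank1 kept a change of -2.90 and Csnk2b one of -1.48, and Msh5 turned to -0.076. Without a filter 23 genes of the window were higher in both pairs, since low genes entered. The median change of the tested genes was 0.19 without a filter, 0.031 with uniquely placed reads and -0.22 within 100 kb of Csnk2b (16 genes). Csnk2b passed the threshold without a filter (-1.54), by DESeq2 (-1.53) and by limma-voom (-1.52). Nfkbil1 turned to 0.0056 by limma-voom and Gm20419 to -0.045 with uniquely placed reads. The causes were not tested, except that the filter changes which genes are tested.

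Leaving out 1 library required a fit without the block, in which the tissue difference enters the contrast by construction, and leaving out 1 pair left a ratio with no test. Over these, 0 to 1 genes were higher and 0 lower over all features, and the median change of the tested genes ran from -0.39 to 1.26. Changes that turned sign in some of them ran from -1.38 to 0.74 for Ly6g5b, -1.18 to 0.85 for Abhd16a, -2.07 to 6.15 for Msh5, -0.71 to 2.59 for Gm20522, -0.37 to 1.25 for D17H6S53E, -3.01 to 2.53 for Bag6, -6.62 to 3.91 for Prrc2a, -0.70 to 8.45 for Atp6v1g2, -0.070 to 1.82 for H2-Q10, -5.13 to 3.08 for Nfkbil1, -0.019 to 1.01 for H2-Q6, -0.16 to 0.13 for Ddx39b, -5.04 to 4.47 for Ltb and -2.15 to 2.46 for Ehmt2. Others ran from -0.67 to 0.31 for H2-D1, -2.48 to 2.64 for Hspa1b, -1.56 to 0.45 for Lst1, -0.56 to 0.064 for Tnf, -0.57 to 1.65 for Lta, -0.41 to 1.41 for H2-Q7, -2.94 to 2.99 for H2-Q4, -1.57 to 2.01 for H2-Q5, -0.76 to 0.89 for Gm20419, -0.35 to 0.99 for D17H6S56E-5 and -4.40 to 7.69 for Vars. Csnk2b, Gpank1, Clic1, Ddah2, Tcf19 and 1110038B12Rik kept their direction in every alternative run. Depth limits the genes with few reads most, and 38 of 78 genes were too low to test.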
